A study of Mus musculus with 3 samples.

Results

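Langerhans and other MHC class II-high cells of mouse abdominal dermis were taken as the cell barcodes in which Cd74, H2-Aa, H2-Ab1 and H2-Eb1 together held at least 0.5% of the unique molecular identifiers (UMIs, the tags that count single captured RNA molecules). Barcodes needed 200 or more detected genes, with mitochondrial UMIs at no more than 10%, and a member had UMIs of at most 2 of the macrophage genes C1qa, C1qb, C1qc, Pf4, Mrc1, Ms4a7 and Ccl8. This rule chose 111 of 6022 kept cells, or 1.84%. They were split into 53 Cd207+ members, with 1 or more UMIs of Cd207, and 58 Cd207- members with none. Members were thus chosen by the measured levels of these 12 genes, which are given below as a description only.

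The study profiled dissociated dermal cells with 10x Chromium in 3 libraries, 1 for each stage. NP is from non-pregnant mice, dpc16 from gestation day 16 and dpp42 from day 42 post partum. All mice were C57BL/6, aged 8 to 12 weeks and of the genotype Col1a2creERT2; R26H2B EGFP, in which tamoxifen switches on a nuclear green fluorescent protein in cells that use the Col1a2 driver, mostly fibroblasts. Tamoxifen was given in pregnancy for dpc16 and dpp42, whereas NP mice received it for 3 days and were sampled 48 days later. The number of mice behind a library is not given in the sources used here. Skin freed of fat lay for 30 min in 0.25% trypsin, so that the epidermis could be taken off, and dermal cells passed filters of 40 and 20 µm. With 1 library per stage no difference between stages could be tested, and intervals in this text cover counting error only, not mouse, litter or dissociation.

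Langerhans cells are the resident antigen-presenting cells of the epidermis. They carry langerin, the lectin encoded by Cd207, are held among keratinocytes by E-cadherin and EpCAM, and leave for the lymph node through the dermis, where type 2 dendritic cells (cDC2) with lectins such as Mgl2 and Cd209a also reside. Both load peptides from engulfed proteins on MHC class II: the invariant chain Cd74 guards the groove of H2-A and H2-E until cathepsin S cuts it away, and H2-DM then exchanges its last fragment for a peptide, a step that H2-O restrains.

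The promoters of class II genes share an X box and a Y box, which the RFX and NF-Y factors bind and to which the coactivator Ciita is recruited. The 140 bases before the annotated start (RefSeq, GRCm38.p6, 5′ to 3′ on the gene's strand) are shown for the class II genes in which such letters were found, since these are the genes whose RNA defines or accompanies the cells. Capitals mark AGNAAC, 2 further bases and ATGATG for the X box, and TGATTGG for the Y box, and H2-Aa and H2-DMb2, like H2-Oa, which is not shown, hold the Y letters alone.
H2-Aa: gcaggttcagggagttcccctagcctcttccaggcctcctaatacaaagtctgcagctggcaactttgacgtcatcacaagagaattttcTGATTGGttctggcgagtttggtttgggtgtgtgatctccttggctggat
H2-Eb1: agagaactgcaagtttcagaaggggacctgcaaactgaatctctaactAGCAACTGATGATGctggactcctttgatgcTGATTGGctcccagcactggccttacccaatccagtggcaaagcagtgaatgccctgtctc
H2-DMb1: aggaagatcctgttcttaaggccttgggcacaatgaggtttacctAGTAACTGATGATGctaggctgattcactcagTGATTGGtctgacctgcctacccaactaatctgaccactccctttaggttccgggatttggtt
H2-DMb2: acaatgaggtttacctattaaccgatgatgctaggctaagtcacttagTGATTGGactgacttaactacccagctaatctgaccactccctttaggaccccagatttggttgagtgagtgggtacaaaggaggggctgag
H2-Ob: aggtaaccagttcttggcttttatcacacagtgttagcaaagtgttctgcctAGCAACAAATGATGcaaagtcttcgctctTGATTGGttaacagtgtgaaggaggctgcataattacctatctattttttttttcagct
They lie on the forward strand of chromosome 17, except H2-Aa on the reverse strand, at chr17:34287824-34287963 for H2-Aa, chr17:34305727-34305866 for H2-Eb1, chr17:34153051-34153190 for H2-DMb1, chr17:34145109-34145248 for H2-DMb2 and chr17:34238765-34238904 for H2-Ob. Counted from the start, the Y letters begin at -50 in H2-Aa, -61 in H2-Eb1, -63 in H2-DMb1, -92 in H2-DMb2 and -59 in H2-Ob, and the X letters at -92 in H2-Eb1, -95 in H2-DMb1 and -88 in H2-Ob. Searched on both strands of the 250 bases before the start in 32851 RefSeq promoters, the Y letters stood in 7.23%, the X letters in 0.0213% (7 promoters), and both in 3, those of H2-Eb1, H2-DMb1 and H2-Ob. The annotated promoters of H2-DMa were searched too and held neither the X nor the Y letters. The promoters of Cd74, H2-Ab1 and Ciita were not analysed here. The letters were chosen after these sequences had been looked at, and a match is a description, not a binding site.

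The class II genes filled a like part of the RNA in each library. Their median share of a member's UMIs was 5.46% (NP), 7.38% (dpc16) and 7.74% (dpp42), with ranges of 0.5 to 14.2% (NP), 0.694 to 13.8% (dpc16) and 1.19 to 11.0% (dpp42). The median of other kept cells was 0. Few cells lay near the limit: 2 of dpc16 were between 0.4 and 0.5%, just outside, and 2 of NP between 0.5 and 0.6%, just inside. Exactly 2 macrophage genes were found in 6 members of dpc16 and 1 of dpp42, while 1 cell of NP and 1 of dpc16 were left out with exactly 3. As a member sum per 1e+06 UMIs (CPM, the scale of every level below, which is not divided by gene length), Cd74 stood at 22586 in NP, 25370.2 in dpc16 and 32738 in dpp42. H2-Ab1 was at 13223 CPM in NP, 12296 in dpc16 and 17520.4 in dpp42. By Cd207, Cd74 in dpc16 was at 24423 CPM in Cd207+ and 26773 CPM in Cd207- members.

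Genes that load class II and were not in the rule were also found in the members, at widely different levels. H2-DMa encodes the alpha chain of the peptide exchanger H2-DM and was detected in 13 of 15 members of NP, 77 of 87 of dpc16 and 7 of 9 of dpp42. Its level in members was 572 CPM in NP, 1043 in dpc16 and 1435 in dpp42, against 3.60, 5.09 and 3.52 CPM in other kept cells of these libraries. H2-DMb1, a beta chain, was at 587, 499 and 534 CPM in NP, dpc16 and dpp42, and the second beta chain H2-DMb2 at 44.0 (NP), 159 (dpc16) and 100.1 CPM (dpp42). The 2 genes share much of their sequence, and how the counting divided reads between them is not given in the sources used here. Ctss, the cathepsin that trims the invariant chain, was at 689.8 (NP), 805 (dpc16) and 968 CPM (dpp42). H2-O was barely seen: H2-Oa had 7 UMIs in dpc16 and none in NP and dpp42, and H2-Ob 1 in NP, 12 in dpc16 and 2 in dpp42. Those of H2-Oa came from 6 Cd207+ members. Ciita itself had 0 UMIs in NP, 9 in dpc16 and 1 in dpp42, near the limit of detection at this depth.

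Members were checked against leukocyte and Langerhans genes that did not choose them. The summed level of 11 pan-leukocyte and dendritic cell genes was 6942, 6864 and 8710 CPM in members of NP, dpc16 and dpp42, and 30.5 (NP), 154 (dpc16) and 59.8 CPM (dpp42) in other kept cells. The summed level of the 9 Langerhans genes other than Cd207, which splits the classes, was 2456 (NP), 3693 (dpc16) and 4736 CPM (dpp42) in Cd207+ members. In Cd207- members it was 751 (NP), 510.2 (dpc16) and 749 CPM (dpp42). It was 574 (NP), 621 (dpc16) and 624 CPM (dpp42) in cells outside the class, where Epcam, Cdh1 and Cd24a, which keratinocytes also use, make up most of it. The defining cDC1 gene Xcr1 had 1 UMI in all members. The summed level of the 9 genes of the cDC1 list was 440 (NP), 304 (dpc16) and 834 CPM (dpp42) in members. It was 62.2 (NP), 56.2 (dpc16) and 53.7 CPM (dpp42) in other kept cells. At least 3 of these genes were found in 1 of 4 Cd207+ members (NP), 4 of 46 (dpc16) and 1 of 3 (dpp42). For Cd207- members it was 0 of 11 (NP), 4 of 41 (dpc16) and 1 of 6 (dpp42). Whether some members are cDC1 was not tested. The 9 genes that stood furthest above other kept cells, as a description of the chosen cells, began with Cytip, a regulator of leukocyte adhesion, at 813 CPM in members against 2.07 CPM in other kept cells over all libraries. After it came the costimulatory gene Cd86, Il1b, the class II exchanger gene H2-DMa, Cd83, the interleukin-7 receptor gene Il7r, the anti-apoptotic Bcl2a1b, the ribonuclease gene Ear2 and Rgs1, a brake on chemokine receptor signals. EGFP had a UMI in 1 member of dpc16 and in none of the other members. It was rare in other kept cells too, in 1.41% of NP, 1.35% of dpc16 and 2.71% of dpp42. Whether members differ from other cells in EGFP was not tested.

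Members also held UMIs of other skin cells. Genes of the keratinocyte list made up a median of 0.155, 0.167 and 0.133% of a member's UMIs in NP, dpc16 and dpp42 and at most 3.17%, and genes of the fibroblast list 0.0193% (NP), 0.0479% (dpc16) and 0.0306% (dpp42), and at most 16.2%. Over 1% of either list was found in 5 members of NP, 22 of dpc16 and 1 of dpp42, 28 in all, and 5 members had at least 2 genes of T, NK, B or mast cells. In dpc16, over 1% of keratinocyte UMIs was found in 9 Cd207+ and 4 Cd207- members, and over 1% of fibroblast UMIs in 3 Cd207+ and 7 Cd207- members. The part of these UMIs in the differences below was not tested. Members held 68138, 466808 and 29965 UMIs in NP, dpc16 and dpp42, with medians of 3985, 4580 and 3207 per cell. Libraries shared 6 kept barcodes between dpc16 and NP, 1 between dpp42 and NP and 4 between dpp42 and dpc16, none of them a member.

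Class II-high cells were most frequent at gestation day 16, and the counting interval of the dpc16 over NP ratio excluded 1 for Cd207+ but not for Cd207- members. Members made up 1.16% of kept cells in NP (15 of 1289, 95% Clopper-Pearson interval 0.653 to 1.91%), 2.38% in dpc16 (87 of 3652, 1.91 to 2.93%) and 0.833% in dpp42 (9 of 1081, 0.381 to 1.57%). The share of Cd207+ members in dpc16 was 1.26%, against 0.310% in NP, a ratio of 4.06 (95% counting interval 1.48 to 15.5). For Cd207- members it was 1.12% in dpc16 and 0.853% in NP, a ratio of 1.32 whose interval of 0.664 to 2.84 includes 1. For dpp42 over dpc16 the ratio was 0.220 for Cd207+ members (0.0438 to 0.685) and 0.494 for Cd207- members (0.172 to 1.17). For dpp42 over NP the ratio for all members was 0.715 (0.276 to 1.75). Whether the Cd207+ and Cd207- ratios differ was not tested. The mitochondrial limit left out 458 barcodes of dpc16, 40 of NP and 112 of dpp42, and a share of captured cells also moves with how many fibroblasts, keratinocytes and other cells a dissociation freed.

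**Figure D1:**
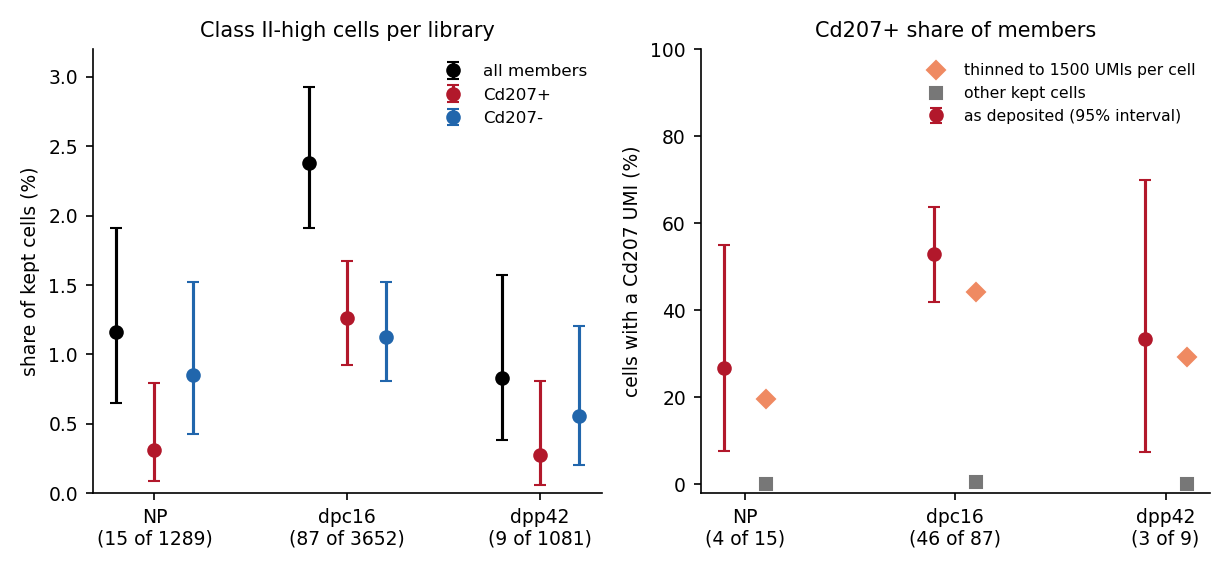
Left: class II-high cells as a percentage of kept cells in each library, for all members (black) and for Cd207+ (red) and Cd207- (blue) members, with 95% Clopper-Pearson intervals. Right: percentage of members with a Cd207 UMI as deposited (red) and after thinning each cell to 1500 UMIs (orange), beside other kept cells (grey). Cd207+ members reach 1.26% of cells in dpc16 and stay near 0.3% in the other libraries.

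Of the members, 26.7% had a Cd207 UMI in NP (4 of 15, 7.79 to 55.1%), 52.9% in dpc16 (46 of 87, 41.9 to 63.7%) and 33.3% in dpp42 (3 of 9, 7.49 to 70.1%). The intervals of the 3 libraries overlap. Thinned to 1500 UMIs per cell, the shares were 19.6% (NP), 44.2% (dpc16) and 29.2% (dpp42). Among other kept cells, whose median class II share was 0, 0.0785% of NP, 0.561% of dpc16 and 0.0933% of dpp42 had a Cd207 UMI, at median depths of 3112, 4289 and 3255.5 UMIs. Cd207+ members held a median of 5 Cd207 UMIs in NP (1 to 33), 10 in dpc16 (1 to 89) and 4 in dpp42 (2 to 7). A Cd207- member can still be a cell whose few Cd207 molecules were not captured, and Langerhans genes in those cells are counted below.

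Within the dpc16 library, the 46 Cd207+ and 41 Cd207- members differed in several of the gene groups. The sums held 278633 UMIs for Cd207+ and 188175 for Cd207- members, and 2666 genes outside the rule had at least 20 UMIs over both. A gene is called here past 2-fold when its CPM ratio is at least 2 either way with a counting interval that excludes 1: 262 genes (9.83%) were higher in Cd207+ members and 244 (9.15%) were lower, 19% in all. The split used Cd207 alone, and these counts describe 2 pools of cells of 1 library.

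Of the 9 other Langerhans genes, all measured, 8 were higher in Cd207+ members and none was lower, with a median log2 ratio of 1.79 against 0.09 over all measured genes. H2-M2, a non-classical class I gene, had 287 UMIs in 36 of 46 Cd207+ members and 1 UMI in 1 of 41 Cd207- members, or 1030.03 CPM in Cd207+ against 5.31 CPM in Cd207- members (ratio 194, 95% counting interval 34.5 to 7682). Mfge8, a secreted protein that bridges apoptotic cells to phagocytes, was at 926 CPM in Cd207+ against 42.5 CPM in Cd207- members (ratio 21.8, 95% counting interval 10.9 to 51.0). Epcam, the adhesion molecule that Langerhans cells share with keratinocytes, was in 37 of 46 Cd207+ and 6 of 41 Cd207- members, at 452 CPM in Cd207+ against 58.5 CPM in Cd207- members. Other kept cells, keratinocytes among them, had 213 CPM of Epcam. The median share of keratinocyte UMIs was 0.238% in Cd207+ and 0.138% in Cd207- members.

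Cdh1, which encodes E-cadherin, was at 158 CPM in Cd207+ against 53.1 CPM in Cd207- members, and Ltc4s, the leukotriene C4 synthase, at 215 CPM in Cd207+ against 21.3 CPM in Cd207- members. Csf1r, the receptor for the survival factors CSF1 and IL-34, was at 162 CPM in Cd207+ against 63.8 CPM in Cd207- members. Runx3, a transcription factor that Langerhans cells need, did not pass, at 96.9 CPM in Cd207+ against 53.1 CPM in Cd207- members (ratio 1.82, 95% counting interval 0.855 to 4.22). Genes outside the list that ranked highest were Plek2, Tbc1d4, Hpgds, Prkcb, Grasp, Gngt2, Cst6 and Defb6, beside H2-M2 and Mfge8. Tbc1d4, a regulator of vesicle traffic, had 148 UMIs in 33 of 46 Cd207+ members and 1 UMI in the Cd207- members. Plek2 had 64 UMIs in 22 of 46 Cd207+ members and none in Cd207- members, at least 14.4-fold higher with 3 UMIs as the floor of the Cd207- sum. Hpgds, a prostaglandin D synthase, was at 255 CPM in Cd207+ against 10.6 CPM in Cd207- members. Of the 765 Cst6 UMIs, 573 came from 1 cell. Cst6 and Defb6 stood little above the other kept cells of dpc16. Cst6 was at 2746 CPM in Cd207+ members and 2442 CPM in other kept cells, and Defb6 at 1098 and 1068 CPM.

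**Figure D2:**
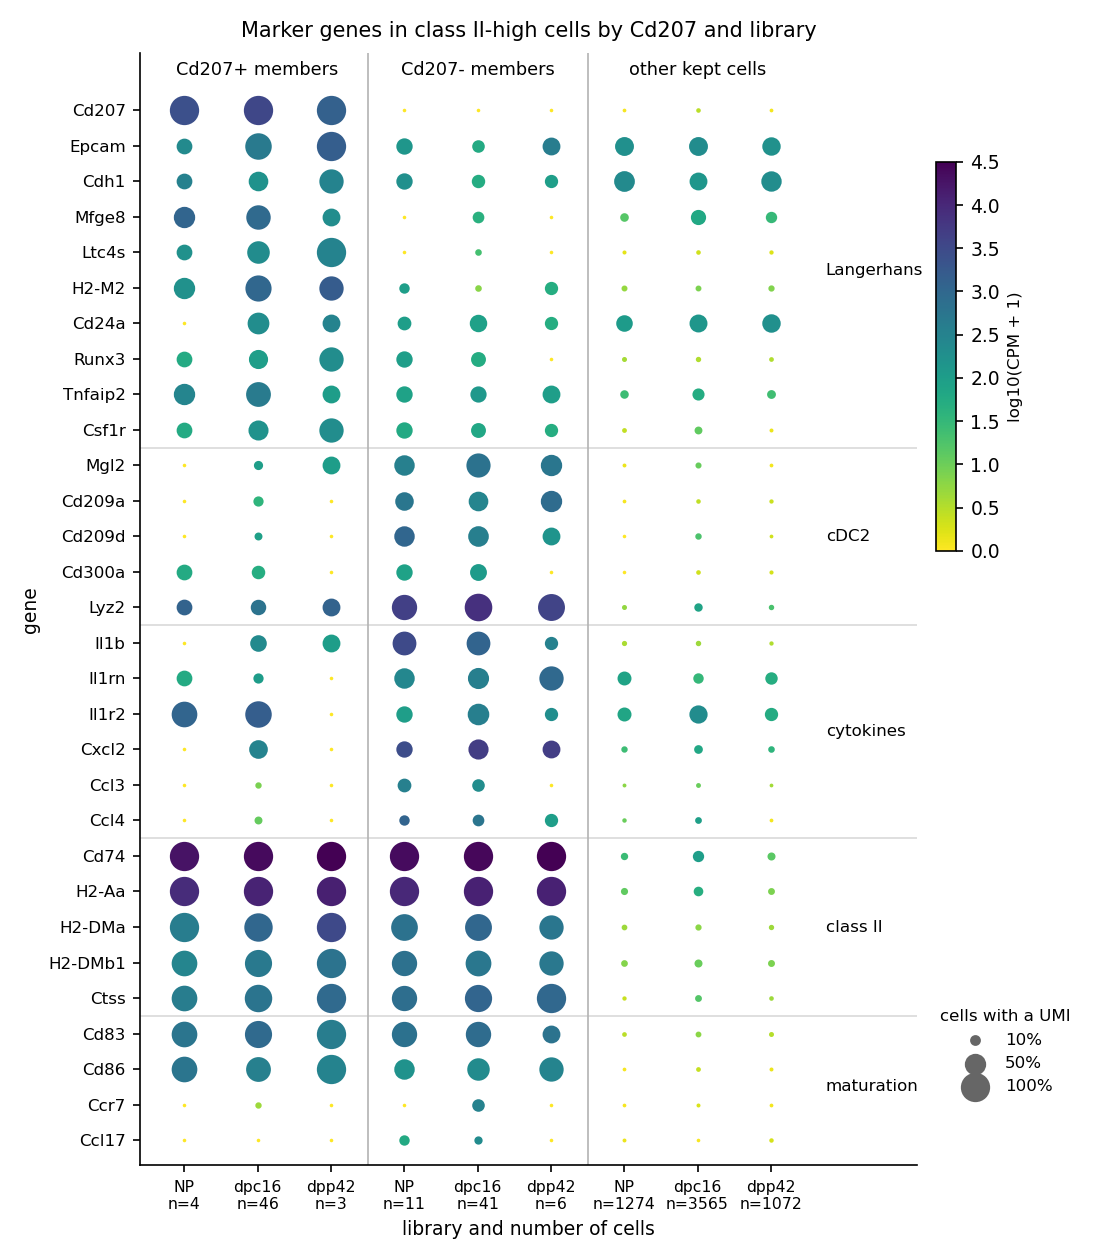
Marker genes (rows) in Cd207+ members, Cd207- members and other kept cells of each library (columns, with the number of cells). Dot area gives the percentage of cells with a UMI and colour the level as log10(CPM + 1). Langerhans genes are largest in the left block, cDC2 genes and the cytokines other than Il1r2 in the middle block, and class II genes in both. Lyz2, drawn in the row group marked cDC2, is from the list of pan-leukocyte and dendritic cell genes.

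Cd207- members carried more of the cDC2 genes than Cd207+ members, but less than class II-high cells with 3 or more macrophage genes. In dpc16 the 7 genes of the list summed to 337 CPM in Cd207+ and 1546 CPM in Cd207- members. They summed to 3117 CPM in the 24 class II-high cells with 3 or more macrophage genes. All 4 measured cDC2 genes were lower in Cd207+ members (median log2 ratio -2.40), and 3 further genes of the list present in the files had fewer than 20 UMIs. Mgl2, a galactose-binding lectin of dermal dendritic cells and macrophages, was in 3 of 46 Cd207+ and 27 of 41 Cd207- members, at 96.9 CPM in Cd207+ against 648 CPM in Cd207- members (ratio 0.149, 95% counting interval 0.0947 to 0.228). Cd209a, a DC-SIGN homologue, was at 35.9 CPM in Cd207+ against 287 CPM in Cd207- members, its relative Cd209d at 89.7 CPM in Cd207+ against 383 CPM in Cd207- members and the inhibitory receptor Cd300a at 50.2 CPM in Cd207+ against 112 CPM in Cd207- members. Lysozyme, encoded by Lyz2, was at 610.1 CPM in Cd207+ against 7376 CPM in Cd207- members and in 11 of 46 Cd207+ and 36 of 41 Cd207- members.

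Uptake and Fc receptors followed the same side. All 5 measured genes of that list were lower in Cd207+ members: Clec4a2 at 10.8 CPM in Cd207+ against 229 CPM in Cd207- members, Clec4n, Fcgr2b, Fcer1g and Cd209a, which the cDC2 list also holds. Of the monocyte list, the chemokine receptor Ccr2 was at 10.8 CPM in Cd207+ against 90.3 CPM in Cd207- members and fibronectin Fn1 at 14.4 CPM in Cd207+ against 271 CPM in Cd207- members. Ifi27l2a, an interferon-inducible gene, had 2 UMIs in Cd207+ members and 83 in 24 of 41 Cd207- members. Of the 10 lowest ranked genes, 7 took over 50% of their UMIs from 1 Cd207- cell: Retnla, Cxcl3, Serpinb6d, Ccl17, Ccl5, Ccl4 and Rsad2. The others were Samsn1, Ccr7 and Ifi27l2a, the first of them in 1 of 46 Cd207+ and 15 of 41 Cd207- members.

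Most measured cytokine genes were lower in Cd207+ members. Of 16 cytokine list genes 9 were measured, 6 lower and 2 higher in Cd207+ members. Il1b, the precursor of interleukin-1 beta, was in 13 of 46 Cd207+ and 26 of 41 Cd207- members, at 229.7 CPM in Cd207+ against 1164 CPM in Cd207- members (ratio 0.197, 95% counting interval 0.147 to 0.262). Its receptor antagonist Il1rn was at 108 CPM in Cd207+ against 377 CPM in Cd207- members. The neutrophil chemokine gene Cxcl2 was at 305 CPM in Cd207+ against 4979 CPM in Cd207- members, and was found in 17 of 46 Cd207+ and 18 of 41 Cd207- members. Ccl3, Ccl4 and Ptgs2, the inducible cyclooxygenase, were also lower. The 2 higher genes were Il1r2, the decoy receptor that binds interleukin-1 without signalling, at 1504 CPM in Cd207+ against 372 CPM in Cd207- members (ratio 4.04, 95% counting interval 3.13 to 5.28), and the chemokine gene Cxcl16 at 761 CPM in Cd207+ against 361 CPM in Cd207- members.

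**Figure D3:**
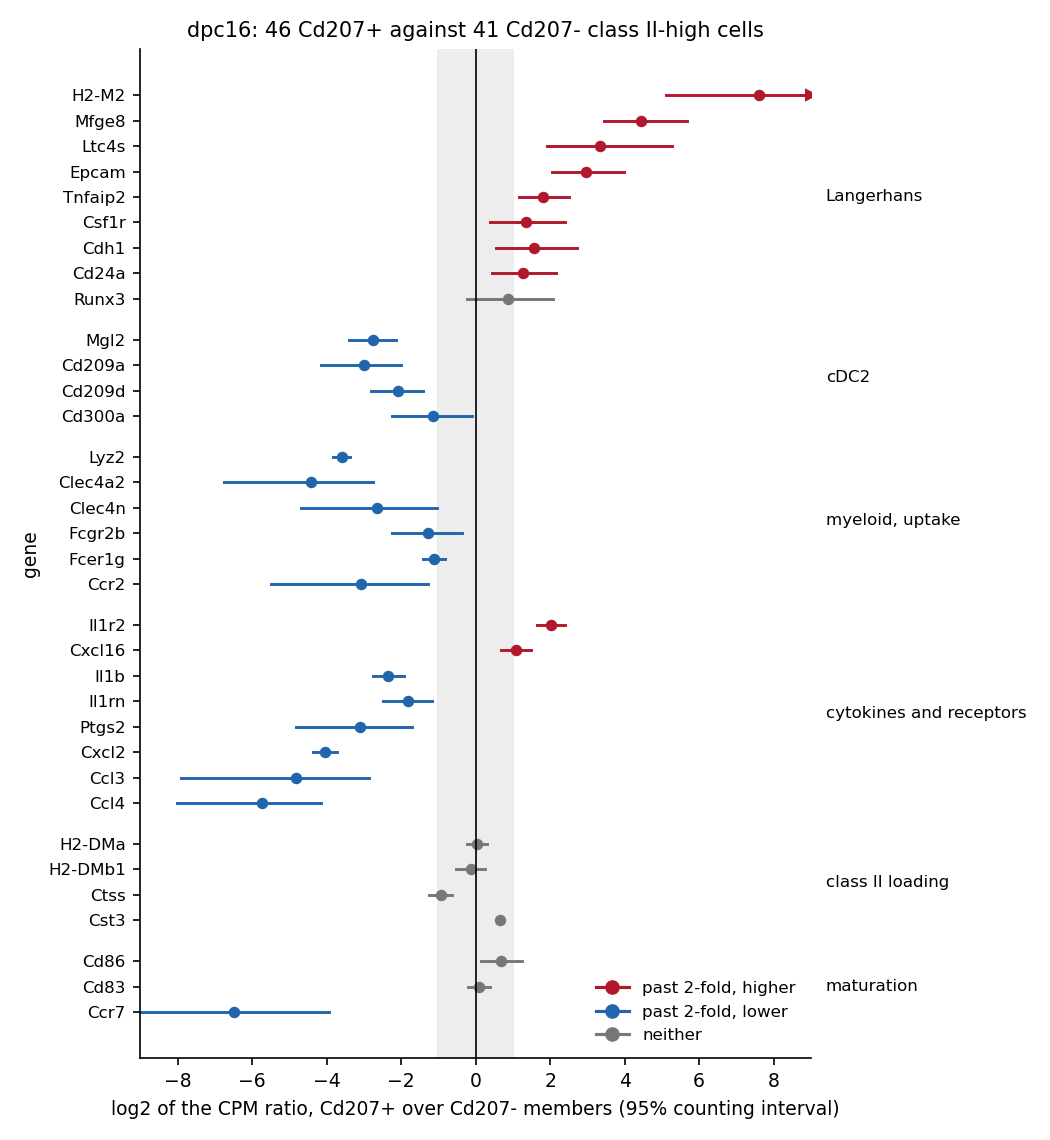
CPM ratio of 46 Cd207+ over 41 Cd207- members of dpc16 on a log2 axis, with 95% counting intervals; red and blue mark genes past 2-fold and the grey band the range within 2-fold. The interval of H2-M2 runs beyond the right edge and that of Ccr7 beyond the left. Il1r2 and the Langerhans genes past 2-fold lie right of the band, and cDC2 genes, Lyz2 and most cytokines left of it. The class II loading genes shown lie within it.

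Class II loading and class I genes were mostly within 2-fold. Of the class II loading list, 8 were measured, none was higher and 2 were lower in Cd207+ members: the protease gene Lgmn, at 79.0 CPM in Cd207+ against 202 CPM in Cd207- members, and the lysosomal thiol reductase Ifi30, at 165 CPM in Cd207+ against 499.5 CPM in Cd207- members. H2-DMa was at 1052 CPM in Cd207+ against 1031 CPM in Cd207- members (ratio 1.02, 95% counting interval 0.848 to 1.23). Ctss was at 589 CPM in Cd207+ against 1127 CPM in Cd207- members and Cst3, which encodes cystatin C, at 8061 CPM in Cd207+ against 5139 CPM in Cd207- members, both within 2-fold. Of 9 measured class I genes none was past 2-fold. The costimulatory genes Cd83 and Cd86 were at 912 CPM in Cd207+ against 856 CPM in Cd207- members and 359 CPM in Cd207+ against 223 CPM in Cd207- members.

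In other lists the part of the genes past 2-fold varied widely. Of 10 NF-kB feedback genes only Nfkbiz was past 2-fold, lower in Cd207+ members, and of 10 lysosomal genes 3 were lower (Ctsc, Ctsl and Psap). Of 6 measured interferon genes 5 were lower (Ifit1, Isg15, Bst2, Gbp2 and Rsad2), but 44 of 45 Rsad2 UMIs and all 25 of Ifit1 were from 1 Cd207- cell each. Among 15 immediate early genes Nr4a1 was at 789.6 CPM in Cd207+ against 101 CPM in Cd207- members, Fosb and Atf3 were also higher and Klf2 lower. Smad7, a feedback inhibitor of TGF-beta signalling that TGF-beta itself induces, had 19 UMIs in Cd207+ and 2 in Cd207- members, and Id2, a factor of dendritic cell development, was at 205 CPM in Cd207+ against 494 CPM in Cd207- members. Beside these, 9 of 10 keratinocyte genes were higher in Cd207+ members and 5 of 6 measured fibroblast genes lower: Krt14 was at 1759 CPM in Cd207+ against 792 CPM in Cd207- members and Col1a1 at 1077 CPM in Cd207+ against 2747 CPM in Cd207- members. Without the 22 dpc16 members with over 1% of such UMIs, Krt14, Krt10, Col1a1, Col3a1 and Dnajb1 turned their direction, and Epcam, Mfge8, H2-M2, Mgl2, Lyz2 and Il1b kept theirs and stayed past 2-fold.

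Single cells combined these genes as the sums did. At least 3 of the 9 Langerhans genes other than Cd207 were detected in 37 of 46 Cd207+ and 8 of 41 Cd207- members of dpc16. Mgl2, Cd209a or Cd209d was found in 5 of 46 Cd207+ and 30 of 41 Cd207- members. Cells with at least 3 Langerhans genes and at least 2 cDC2 genes at once numbered 4 Cd207+ and 3 Cd207- members, and 5 Cd207+ and 9 Cd207- members met neither limit. In NP the same lectins were found in 0 of 4 Cd207+ and 6 of 11 Cd207- members and in dpp42 in 1 of 3 Cd207+ and 4 of 6 Cd207- members. At least 3 Langerhans genes were found in 2 of 4 Cd207+ and 3 of 11 Cd207- members of NP, and in 3 of 3 Cd207+ and 1 of 6 Cd207- members of dpp42.

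The ranked genes were looked at in the smaller libraries, where few of them passed. Of the 10 genes ranked higher in dpc16, 9 of 10 with a UMI were higher in Cd207+ members of NP, 3 of them past 2-fold, and 6 of 9 in those of dpp42, none past 2-fold. Of the 10 ranked lower, 6 with a UMI in NP were all lower, 3 of them past 2-fold, and 3 with a UMI in dpp42 were lower, none past 2-fold. With at least 5 UMIs in dpp42, 4 of 6 ranked higher and 2 of 2 ranked lower had the direction seen in dpc16. The share of all measured genes past 2-fold between the classes of NP and of dpp42 is not given here. These counts of ranked genes therefore cannot be set against it. Mfge8 was at 1142 CPM in Cd207+ and 0 in Cd207- members of NP, and H2-M2 at 1612 CPM in Cd207+ against 49.9 CPM in Cd207- members of dpp42. H2-M2 had 8 UMIs in NP members, in both classes and with a smaller gap between them than in dpp42. Mfge8 had 2 UMIs in all dpp42 members. Il1b was at 0 in Cd207+ against 3042 CPM in Cd207- members of NP and 101 CPM in Cd207+ against 349 CPM in Cd207- members of dpp42. The Cd207+ sums rest on 4 cells in NP and 3 in dpp42.

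Ccr7, the receptor that leads dendritic cells to the lymph node, was found in 7 members, all in dpc16. One of them was Cd207+ with 1 UMI and 6 were Cd207- with 1, 2, 5, 16, 17 and 19 UMIs. The cell with 19 Ccr7 UMIs also held 41 of the 42 Ccl17 UMIs and 9 of Ccl22, chemokines of matured dendritic cells. The 3 cells with 16 or more Ccr7 UMIs had 15, 22 and 9 UMIs of Cd83, and none of the 7 cells had a UMI of the maturation gene Fscn1. In the 15 members of NP and 9 of dpp42 the gene was not detected, which by counting error alone allows up to 3 UMIs of 68138 and 29965. Most Ccr7 UMIs of dpc16 came from 3 cells, so this bound does not cover which cells were captured. With 15 and 9 cells, whether such cells are missing from NP and dpp42 cannot be decided.

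Between stages, the members of dpc16 were set against those of NP. Of 3050 measured genes 139 (4.56%) were higher and 230 (7.54%) lower in dpc16, 12.1% in all, with a median log2 ratio of -0.13 (-0.02 for the same genes in other kept cells). This split depends on scaling: with median-of-ratios scaling, which set the dpc16 sum to 0.902 of its size, 205 were higher and 177 lower. Without the cell that held most UMIs of each gene, 205 were higher and 76 lower. Since dpc16 holds more Cd207+ members, values are also given within each class. In Cd207+ members 53 of 1760 genes (3.01%) were higher and 86 (4.89%) lower, 7.9% in all, and in Cd207- members 132 of 1413 (9.34%) and 136 (9.62%), 19% in all.

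Il1b was lower in dpc16 members, at 606 CPM in dpc16 against 2260.1 CPM in NP (ratio 0.268, 95% counting interval 0.220 to 0.329), and 3.48 CPM in dpc16 against 2.74 CPM in NP among other kept cells. Il1b had 154 UMIs in NP members, 60 of them from 1 cell. Within Cd207- members it was at 1164 CPM in dpc16 against 3042 CPM in NP (ratio 0.383, 95% counting interval 0.310 to 0.473), and found in 26 of 41 cells of dpc16 and 7 of 11 of NP. Within Cd207+ members it was at 229.7 CPM in dpc16, against 0 of 17510 UMIs in NP. The decoy receptor Il1r2 was higher, at 1048 CPM in dpc16 against 367 CPM in NP (ratio 2.86, 95% counting interval 1.91 to 4.46). It was so in Cd207- members, at 372 CPM in dpc16 against 98.8 CPM in NP, while in Cd207+ members it was at 1504 CPM in dpc16 against 1142 CPM in NP, and in other kept cells at 209 CPM in dpc16 against 71.8 CPM in NP. Cxcl2 did not differ past 2-fold, at 2189 CPM in dpc16 against 2128 CPM in NP. Within Cd207+ members Cxcl2 was at 305 CPM in dpc16 against 0 CPM in NP and Cxcl16 at 761 CPM in dpc16 against 228 CPM in NP. Of 6 measured cytokine genes there, 3 counted as past 2-fold higher (Il1b, Cxcl2 and Cxcl16) and none was lower. Il1b and Cxcl2 had no UMI in NP, so that their size of change is known only as a bound. They were at least 1.34-fold and 1.78-fold higher with 3 UMIs as the floor of the NP sum. Over all members, of 11 measured cytokine genes 1 was higher and 4 lower, the others being Ccl3, Ccl4 and Tnfsf9, and all 58 Ccl4 UMIs of NP came from 1 cell.

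Of 4 measured cDC2 genes 2 were lower in dpc16 members, and none was higher. The list's median log2 ratio was -0.82 in members but 4.18 in other kept cells. Those other cells include the class II-high cells with 3 or more macrophage genes, 24 in dpc16 and 1 in NP. Among members Cd209d was at 208 CPM in dpc16 against 807 CPM in NP and Cd209a at 137 CPM in dpc16 against 396 CPM in NP. Within Cd207- members Cd209d was at 383 CPM in dpc16 against 1086 CPM in NP, past 2-fold, and Cd209a at 287 CPM in dpc16 against 533 CPM in NP, which was not (ratio 0.538, 95% counting interval 0.333 to 0.888). Of the 55 NP UMIs of Cd209d, 32 were from 1 cell. Gpr183, the oxysterol receptor that positions dendritic cells, was at 30.0 CPM in dpc16 against 249 CPM in NP. Isg15, an interferon-induced ubiquitin-like protein, was at 98.5 CPM in dpc16 against 646 CPM in NP, but of 6 measured interferon genes it alone was lower and Rsad2 higher. The other genes ranked lowest were Crabp1, Cd209e, Alox12e, Fcgbp, Retnla, Sostdc1, Plk2 and Anp32e. Of these 10 lowest genes, 6 took over 50% of their NP UMIs from 1 cell: Crabp1, Cd209e, Alox12e, Fcgbp, Retnla and Sostdc1.

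H2-M2 was higher in dpc16 members, at 617 CPM in dpc16 against 117 CPM in NP (ratio 5.25, 95% counting interval 2.63 to 12.3), and within Cd207+ members at 1030.03 CPM in dpc16 against 171 CPM in NP. In Cd207- members the order was turned, at 5.31 CPM in dpc16 against 98.8 CPM in NP on 1 UMI in dpc16 and 5 in NP. Of the 9 Langerhans genes, 3 were higher over all members (H2-M2, Ltc4s and Tnfaip2), but only H2-M2 within Cd207+ members. Of 7 measured maturation genes Ccr7, Ccl22 and Cd40 were higher, the first 2 with no NP UMI. The class II exchanger H2-DMa was at 1043 CPM in dpc16 against 572 CPM in NP, within 2-fold, and of the 8 measured loading genes H2-DMb2 alone was past it. The leukocyte surface gene Cd52 was at 705 CPM in dpc16 against 308 CPM in NP and Ptprc, which encodes CD45, at 141 CPM in dpc16 against 294 CPM in NP.

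Members of dpc16 had more RNA of heat shock genes, as did other kept cells. Of 10 genes 6 were past 2-fold and none lower, with a median log2 ratio of 1.18 in members and 0.85 in other kept cells. Hsp90aa1, an inducible chaperone, was at 3295 CPM in dpc16 against 925 CPM in NP among members (ratio 3.56, 95% counting interval 2.77 to 4.66) and at 2242 CPM in dpc16 against 663 CPM in NP among other kept cells. Hspa8 was at 3802 CPM in dpc16 against 1541 CPM in NP among members and 2443 CPM in dpc16 against 983 CPM in NP among other kept cells. Hsp90aa1, Dnajb1, Hspa8 and Hspe1 were past 2-fold in both Cd207+ and Cd207- members. Of 15 immediate early genes Jun alone was past 2-fold, at 1011 CPM in dpc16 against 352 CPM in NP, with 1462 CPM in dpc16 against 713 CPM in NP among other kept cells. The NF-kB inhibitor Nfkbia was at 1155 CPM in dpc16 against 514 CPM in NP. The part of tissue handling in these genes was not tested. Within Cd207- members 4 of 10 lysosomal genes were higher in dpc16 (Ctsb, Ctsc, Cd63 and Lgals3), against 0 of 8 within Cd207+ members, and this difference was not tested.

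All 4 measured cell cycle genes were lower in dpc16 members: Top2a, Stmn1, Pcna and Hmgb2. Hmgb2, a chromatin protein abundant in dividing cells, was at 283 CPM in dpc16 against 704 CPM in NP, and at 249.9 CPM in dpc16 against 391 CPM in NP among other kept cells. The list's median log2 ratio was -1.56 in members and -0.95 in other kept cells. Within each class 2 of the genes were measured: Hmgb2 alone was lower in Cd207+ members, and Stmn1 and Hmgb2 in Cd207- members. Of the 11 NP Cd207- members, 2 held UMIs of 3 or more of the 10 listed genes, with up to 9 in a cell, and 1 cell gave 12 of the 13 Top2a UMIs and 1 cell 20 of the 30 Stmn1 UMIs of all NP members. The part of such cells in the result was not tested beyond the log2 ratios without the top cell of each gene, which were -0.24 for Top2a, -0.68 for Stmn1 and -1.14 for Hmgb2. Fibroblast genes were higher in 5 of 6 cases, as Col1a1 at 1750.2 CPM in dpc16 against 294 CPM in NP, beside 6690.4 CPM in dpc16 against 596 CPM in NP among other kept cells, and Krt1 and Krt10 were lower. The remaining genes ranked highest were Ccl5, Elovl4, Sh3glb1, Xbp1, Ddit3 and Hist1h2bc, and 120 of the 131 Elovl4 UMIs and 84 of the 105 Ccl5 UMIs were from 1 cell each.

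**Figure D4:**
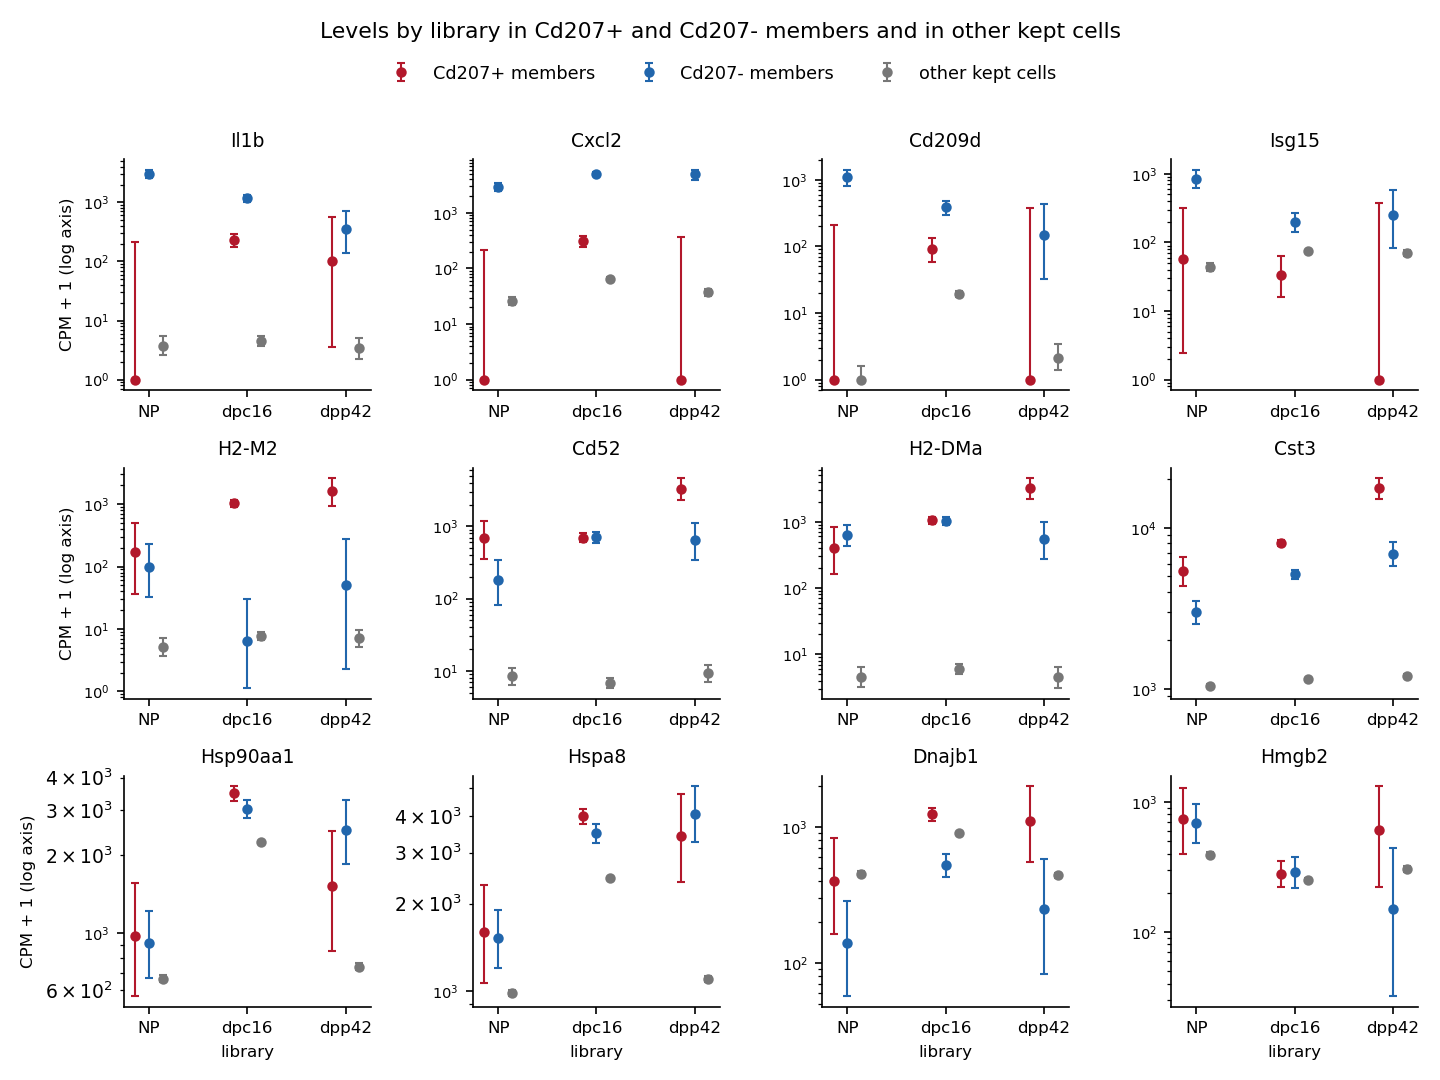
Level (CPM + 1, log axes with their own ranges) of 12 genes in NP, dpc16 and dpp42, for Cd207+ members (red), Cd207- members (blue) and other kept cells (grey), with exact Poisson 95% intervals. Il1b, Cd209d and Isg15 stand highest in Cd207- members of NP, and Hsp90aa1 and Hspa8 are higher in dpc16 than in NP in every cell group.

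The 9 members of dpp42 gave 29965 UMIs, and 641 genes could be measured against NP. Of these 39 (6.08%) were higher and 70 (10.9%) lower, 17% in all. Il1b was at 267 CPM in dpp42 against 2260.1 CPM in NP (ratio 0.118, 95% counting interval 0.0501 to 0.239), and found in 2 of 9 cells of dpp42 and 7 of 15 of NP. Of the 154 Il1b UMIs of NP, 60 were from 1 cell. Cxcl1 and Retnla had no UMI in dpp42 against 67 UMIs of Cxcl1 and 60 of Retnla in NP. Cd209d was at 100.1 CPM in dpp42 against 807 CPM in NP, while Cd209a was at 567 CPM in dpp42 against 396 CPM in NP. Ccl4, Tmed10, Ifitm3, Fcgbp and Avpi1 were the other genes ranked lowest, with Apoe, a lipid carrier also found throughout the dermis, at 934 CPM in dpp42 against 5944 CPM in NP and 272 of its NP UMIs in 1 cell. Without the 3 NP members under 1% class II UMIs, Apoe turned its direction.

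Cd52 was higher in dpp42 members, at 1535 CPM in dpp42 against 308 CPM in NP, and was found in 9 of 9 cells of dpp42 and 9 of 15 of NP. H2-M2 was at 567 CPM in dpp42 against 117 CPM in NP, but within Cd207- members the order was turned, at 49.9 CPM in dpp42 against 98.8 CPM in NP on 1 UMI in dpp42 and 5 in NP. Epcam was at 768 CPM in dpp42 against 161 CPM in NP. H2-DMa was at 1435 CPM in dpp42 against 572 CPM in NP and Cst3 at 10412 CPM in dpp42 against 3596 CPM in NP, the 2 genes higher among 5 measured loading genes, and the 3 Cd207+ cells held 32 of the 43 H2-DMa UMIs. Within Cd207- members H2-DMa was at 549 CPM in dpp42 against 632 CPM in NP. Of 13 immediate early genes 6 were higher (Fos, Fosb, Jund, Klf6, Zfp36 and Dusp1) and Ier2 lower, where the list's median log2 ratio was 0.93 in members and -0.22 in other kept cells. Of 8 heat shock genes 4 were higher and Hspb1 lower, with medians of 0.85 and 0.06. The other genes ranked highest were Cst6, Sat1, Rgs2, Gpcpd1, Nfkbia and Lcp1, and 6 of the 10 ranked highest and 7 of the 10 lowest took over 50% of their UMIs from 1 cell, Cst6 with 146 of its 148. Of 9 measured keratinocyte genes 7, and 3 of 4 fibroblast genes were lower in dpp42 members.

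Against dpc16, 129 of 2812 genes (4.59%) were higher in dpp42 members and 99 (3.52%) lower, 8.11% in all. Il1r2 was at 133 CPM in dpp42 against 1048 CPM in dpc16 (ratio 0.127, 95% counting interval 0.0346 to 0.328), with no UMI in the 3 Cd207+ members. Mfge8 was at 66.7 CPM in dpp42 against 569.8 CPM in dpc16 and Tbc1d4 at 66.7 CPM in dpp42 against 319 CPM in dpc16. Within Cd207- members Tbc1d4 was turned, at 49.9 CPM in dpp42 against 5.31 CPM in dpc16, on 1 UMI in each. Cxcl1, Ccl5, Pxdc1, Avpi1, Elovl4, Maff and Hist1h2bc were the other genes ranked lowest. The ranked higher genes were Map3k8, Dhx40, Gpr65, Rbpj, Cks2, Pak2, Lpar3, Spink5, Zcchc6 and Naaa, each on 7 to 17 UMIs of dpp42. Naaa, an acid amidase of the cDC1 list, was at 534 CPM in dpp42 against 94.3 CPM in dpc16, with 10 of its 16 UMIs in 1 Cd207+ cell.

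Of 5 measured uptake receptors 3 were higher in dpp42 members than in dpc16 members: Cd209a at 567 CPM in dpp42 against 137 CPM in dpc16, Fcgr2b at 267 CPM in dpp42 against 96.4 CPM in dpc16 and Fcer1g at 1735 CPM in dpp42 against 868 CPM in dpc16. Ptprc and Cd52 were also higher, though within Cd207- members Cd52 was at 649 CPM in dpp42 against 712 CPM in dpc16. None of the 8 measured class II loading genes was past 2-fold, with H2-DMa at 1435 CPM in dpp42 against 1043 CPM in dpc16. Il1rn was at 634 CPM in dpp42 against 216 CPM in dpc16, whereas Il1b was at 267 CPM in dpp42 against 606 CPM in dpc16. Within Cd207+ members Il1rn was turned, with no UMI in dpp42 against 108 CPM in dpc16. All 6 measured fibroblast genes and 6 of 10 keratinocyte genes were lower. Leaving out the cell with most UMIs of each gene turned the split to 36 higher and 140 lower. The comparisons of dpc16 and dpp42 with NP share the NP library.

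Cd207- members bordered on cells that the macrophage genes kept out. In dpc16, 24 class II-high cells had 3 or more of the 7 macrophage genes, against 1 in NP and none in dpp42. The 41 Cd207- members were set against these 24 cells, with genes of the rule not counted, and 181 of 1547 genes (11.7%) were higher and 149 (9.63%) lower, 21.3% in all. Il1b was at 1164 CPM in Cd207- members against 115 CPM in macrophage-gene cells (ratio 10.2, 95% counting interval 5.26 to 22.5), and Cytip at 845 CPM in Cd207- members against 38.2 CPM in macrophage-gene cells. Il7r was in 17 of 41 Cd207- members against 0 of 24 macrophage-gene cells, and the eosinophil-associated ribonuclease Ear2 was at 574 CPM in Cd207- members against 12.7 CPM in macrophage-gene cells.

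Other genes were lower in Cd207- members, among them the transglutaminase subunit F13a1 at 42.5 CPM in Cd207- members against 992 CPM in macrophage-gene cells, and the chemokine gene Ccl12 had no UMI in Cd207- members against 92 in macrophage-gene cells. Lyz2 and Mgl2 did not tell the groups apart past 2-fold: Lyz2 was at 7376 CPM in Cd207- members against 8092 CPM in macrophage-gene cells and Mgl2 at 648 CPM in Cd207- members against 1107 CPM in macrophage-gene cells. Of 5 measured cDC2 genes 1 was higher in Cd207- members (Cd209a) and 2 were lower (Clec10a and Cd209d). Cd209a was at 287 CPM in Cd207- members against 89.1 CPM in macrophage-gene cells. Cd209d was at 383 CPM in Cd207- members against 1158 CPM in macrophage-gene cells. Of 10 lysosomal genes 5 were lower, and of 8 NF-kB feedback genes 4 higher, in Cd207- members.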

How the data were processed

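Dissociated dermal cells were profiled in 3 libraries, 1 per stage, with 10x Chromium v2 chemistry on a NextSeq sequencer, per the labels' protocols. The authors made the UMI count tables with Cell Ranger 2.2.0 on mm10 (GRCm38), per the submitters' processing notes, while the sources used here do not name the annotation release. The deposited values are whole UMI counts per gene and barcode, not normalized, and 28339 of 28693 gene IDs matched GENCODE M21.

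Here 6648 barcodes were filtered to 6022 (1289 NP, 3652 dpc16, 1081 dpp42). Library totals were 6031814, 21679047 and 5794940 UMIs. Counts were summed over members and divided by their total (CPM). The rule's genes were left out of counts of genes, which needed 20 UMIs over both sums, and log2 ratios add 0.5 UMI. A ratio to a sum of 0 UMIs counted as past 2-fold where its interval left out 1. Intervals (95%) are exact Poisson for CPM, Clopper-Pearson for shares and exact conditional binomial for ratios. They cover counting error only, cells are not replicates, and with 1 library per stage no p-value was computed. Named genes are the 10 highest and 10 lowest past 2-fold with at least 200 CPM in 1 group, leaving out mitochondrial, ribosomal, hemoglobin, Gm and Rik genes and those higher in other kept cells. Members of the marker and pathway lists and the 20 genes leading over other kept cells were named too, and Cxcl14, Cyb5a and Cyr61 after their values were seen. Members, lists and tests were chosen with earlier results of these data known. No doublet caller was run. Itgam, Ccl21a and Clec7a were not analysed here. Ratio intervals and calls were checked on simulated sums that held counting error alone. That check does not cover genes with most of their UMIs in 1 cell. Calculations used Python 3.11.15, numpy 2.4.6, scipy 1.17.1, pandas 2.3.3 and matplotlib 3.10.9.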

Additional observations from a re-analysis of the deposited data

Results flagged for a closer look

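Of 1199 genes measured in both classes, 4 were called in opposite directions for dpc16 over NP in Cd207+ and Cd207- members, while 42 were called in the same direction. Of the 4, 3 were past 2-fold both ways, and Il1b, which had no NP UMI in Cd207+ members, is shown there only past its bound. The difference between the classes was not tested, and the NP sums rest on 4 Cd207+ and 11 Cd207- cells. Il1b was at least 1.34-fold higher in Cd207+ members of dpc16, with 64 UMIs against 0 and 3 UMIs as the floor of the NP sum, whereas in Cd207- members its ratio was 0.383 (0.310 to 0.473). Cyr61 had a ratio of 0.341 (0.191 to 0.653) in Cd207+ and 5.65 (1.47 to 48.2) in Cd207- members. Cxcl14 had a ratio of 0.279 (0.133 to 0.655) in Cd207+ and 2.58 (1.03 to 8.31) in Cd207- members. Cyb5a had a ratio of 0.346 (0.174 to 0.761) in Cd207+ and 3.41 (1.08 to 17.3) in Cd207- members.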

How the results depend on the processing

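Of 1689 values under other settings, 1472 stayed within the counting interval of the reported value with the same direction, 178 moved and 39 reversed. One setting, without the 28 members with over 1% keratinocyte or fibroblast UMIs, was chosen after seeing the data. Members were then 0.776% of NP, 1.78% of dpc16 and 0.740% of dpp42 cells, and only the dpc16 share moved out of its interval. Genes past 2-fold numbered 506 for Cd207+ over Cd207- members (774 with no UMI minimum), 369 for dpc16 over NP (619 with no minimum, 139 in Cd207+ members alone), 109 for dpp42 over NP (168 with at least 10 UMIs, 198 with no minimum, 64 without the top cell of each gene, 46 in Cd207+ members alone) and 228 for dpp42 over dpc16 (350 with no minimum, 144 in Cd207+ and 136 in Cd207- members alone). Fewer UMIs or cells enter these last counts. With Cd207+ set at 2 or more UMIs, the Cd207+ share was 20% of members (NP), 50.6% (dpc16) and 33.3% (dpp42).

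The following log2 ratios reversed, and the cause was not tested beyond the cells each setting removes. Without members of over 1% keratinocyte or fibroblast UMIs they were Col1a1 1.20, Col3a1 0.12, Dnajb1 -0.21, Krt10 -0.21 and Krt14 -0.22 for Cd207+ over Cd207- members, Alox12e 1.96 and Fcgbp 1.19 for dpc16 over NP, and Ier2 0.20 and Mfge8 3.01 for dpp42 over NP. With class II at 1% or more they were Alox12e 2.04, Psmb8 0.42 and Sostdc1 2.21 for dpc16 over NP and Apoe 0.58 for dpp42 over NP. Without the top cell of each gene they were Alox12e 2.12, Ccl3 1.28, Ccl4 3.24 and Fcgbp 0.021 for dpc16 over NP. With at most 5% mitochondrial UMIs they were Elovl4 -0.78 for dpc16 over NP and 1.06 for dpp42 over dpc16. In Cd207+ members alone they were Alox12e 1.43, Cd209a 0.40, Cd209d 1.68, Elovl4 -1.18, Fcgbp 1.29, Il1b 3.02, Plk2 0.40, Psmb8 0.10 and Tnfaip3 1.94 for dpc16 over NP, Cst6 -3.90, Dusp1 -0.43, Il1b 2.40, Il1rn -0.77 and Sat1 -1.23 for dpp42 over NP, and Il1rn -1.12 for dpp42 over dpc16. In Cd207- members alone they were H2-M2 -3.77 for dpc16 over NP, H2-DMa -0.16 and H2-M2 -0.54 for dpp42 over NP, and Cd52 -0.085 and Tbc1d4 3.23 for dpp42 over dpc16. No paired analysis was possible because each stage has 1 library and the labels give no replicate numbers. At 29965 member UMIs, dpp42 could not show low genes: its floor of 3 UMIs is 100.1 CPM.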
